A study of Homo sapiens with 6 samples.

Results

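The 36 genes described here carry out or steer the making of cholesterol and fatty acids, and sterol regulatory element-binding proteins (SREBPs) control most of them. They were taken from a fixed list: 20 genes of sterol synthesis, 5 that control SREBP, 2 of sterol transport and 9 of fatty acid synthesis. A gene was described in a cell line where it reached 10 CPM (counts per 1000000 unique molecules of a population) in at least 1 population. That left 33 of the 36 genes in the melanoma line A375, out of 10421 genes at that level, and 32 in the lung adenocarcinoma line PC9, out of 9990. A375 missed CYP51A1, LSS and STARD4, and PC9 missed MVK, CYP51A1, STARD4 and ACSS2. Nearest to the limit, A375 had STARD4 at 9.69 CPM outside and MVK at 11.7 CPM inside, and PC9 had ACSS2 at 9.42 CPM outside and LSS at 11.4 CPM inside.

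SREBPs are made as precursors in the membrane of the endoplasmic reticulum, where the sterol sensor SCAP holds them. When membrane sterols are low, SCAP carries the precursor to the Golgi, proteases free its transcription factor end, and that end enters the nucleus. INSIG1 and INSIG2 keep SCAP in the endoplasmic reticulum when sterols are plentiful. The product of SREBF2 acts mainly on sterol genes and that of SREBF1 mainly on fatty acid genes, and INSIG1 is itself a target.

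A375 carries BRAF-V600E and was escalated stepwise through the BRAF inhibitor dabrafenib, at 30, 60, 125, 250 and 500 nM and 1, 2 and 4 µM, in DMEM with 10% serum. PC9 carries an EGFR deletion and was escalated through the EGFR inhibitor osimertinib, at 8, 16, 32, 75, 150, 300 and 600 nM and 1.2 µM, in RPMI-1640 with 10% serum. Each line also had an untreated population, and PC9 had persisters, cells that survived 9 days of acute exposure to 1.2 µM. Cells were tagged by population, pooled by line and profiled by single-cell RNA-seq with 3′ chemistry.

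The A375 table held 8505 cells and 87053189 molecules in 9 populations, with 2938641 to 21976644 per population. The PC9 table held 11258 cells and 77210300 molecules in 10 populations, with 4908228 to 10552237. Each population is 1 culture, so no p-value is given, and the 95% intervals, given in parentheses, hold counting error alone. All ratios of a line against untreated cells share 1 untreated culture. Lung epithelial markers summed to 5920 to 7416 CPM in PC9 (6 of 8 in the table; NKX2-1 and SFTPB were not in it). In A375, melanocytic markers summed to 180 to 773 CPM, with PMEL, MLANA, TYR and TYRP1 near 0, and lung epithelial markers, chiefly the keratin KRT18, to 298 to 976 CPM. Hepatocyte and adipocyte markers, of tissues rich in these genes, summed to at most 14.3 and 1.17 CPM in any population. The A375 pool was sequenced in 2 runs whose cells could not be separated.

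Adapted PC9 cells had more sterol and fatty acid synthesis RNA than untreated PC9 cells, and adapted A375 cells had less. In PC9, the summed sterol genes stood at 691 CPM (675 to 707) untreated and at 768 to 946 CPM over the 8 doses. The summed fatty acid genes stood at 483 CPM untreated and at 591 to 728 CPM. At 1.2 µM these were 1.37-fold (1.32 to 1.41) and 1.51-fold (1.45 to 1.57) higher. In A375, the sterol sum was 780 CPM (768 to 792) untreated and 497 to 647 CPM over the doses, and the fatty acid sum was 728 CPM untreated and 501 to 565 CPM. At 4 µM they were 1.36-fold (1.31 to 1.40) and 1.33-fold (1.28 to 1.37) lower. No adapted population crossed the untreated one in either line or either branch.

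**Figure D1:**
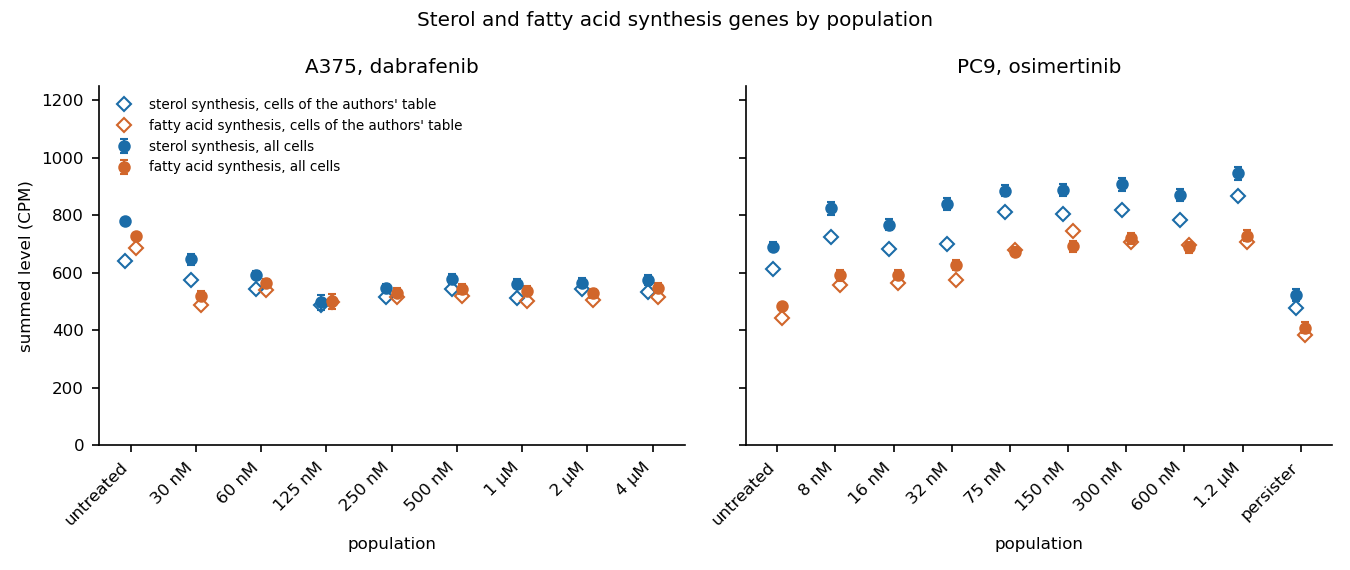
Summed CPM of the sterol synthesis and fatty acid synthesis genes in each population of A375 and PC9, with exact 95% counting intervals. In A375 the untreated population is above every dose, and in PC9 it is below every dose while the persisters, at 522 CPM for sterol and 409 CPM for fatty acid genes, are lowest.

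Among the genes that control SREBP, SREBF2 had the widest range over untreated and adapted PC9 populations. It stood at 30.4 CPM untreated, 63.2, 74.1 and 83.1 CPM as the lowest, median and highest value over the doses, and at 52.0 CPM in persisters. All 8 doses and the persisters were above untreated. The difference was present at the first step, 8 nM, where SREBF2 was 74.0 CPM, 2.43-fold higher (2.11 to 2.81). In the cells of the authors' deposited cell table it was 45.1 CPM untreated and 73.9 CPM at 8 nM, under 2-fold. That table holds only 169 of the 1315 untreated PC9 cells (12.9%), so its untreated PC9 levels rest on few cells. It holds 31.0% to 39.9% of the cells of each PC9 dose and 81.8% of the persisters. The 250 bases before its RefSeq start (GRCh38.p14, chr22:41832855-41833104, plus strand) are shown because this was the only one of 32 members with a promoter window that held the sterol regulatory element letters TCACNCCAC on either strand, 133 bases before the start. Capitals mark that element and an inverted NF-Y box (CCAAT, here read as ATTGG) 106 bases before the start.

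SREBF2: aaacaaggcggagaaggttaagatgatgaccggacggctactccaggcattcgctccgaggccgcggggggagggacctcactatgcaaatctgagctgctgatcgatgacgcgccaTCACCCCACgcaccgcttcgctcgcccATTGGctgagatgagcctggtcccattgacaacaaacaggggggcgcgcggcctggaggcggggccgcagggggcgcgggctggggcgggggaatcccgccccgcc

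INSIG1, the retention factor that SREBPs themselves induce, stood at 6.25 CPM in untreated PC9, at 10.8, 14.3 and 15.1 CPM as the lowest, median and highest value over the doses, and at 8.76 CPM in persisters. It was 2.30-fold higher (1.66 to 3.21) at 8 nM and 2.36-fold higher (1.72 to 3.25) at 1.2 µM. INSIG2, its relative with the same retention role, went the other way. INSIG2 stood at 30.2 CPM untreated and 19.0 to 28.0 CPM over the doses, so that every dose was below untreated, by 1.59-fold (1.29 to 1.97) at 8 nM and 1.08-fold (0.904 to 1.29) at 1.2 µM. The interval at 1.2 µM includes no difference, and in cells of the authors' table INSIG2 was 28.3 CPM untreated and 20.5 to 32.4 CPM over the doses, on both sides of untreated. SREBF1 was 21.9 CPM untreated and 23.2 to 30.8 CPM over the doses. SCAP was 21.4 CPM untreated and 15.3 to 19.98 CPM. The INSIG1 window (GRCh38.p14, chr7:155297628-155297877, plus strand) is shown with its inverted NF-Y box 170 bases and its E-box (CACGTG) 55 bases before the start in capitals.

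INSIG1: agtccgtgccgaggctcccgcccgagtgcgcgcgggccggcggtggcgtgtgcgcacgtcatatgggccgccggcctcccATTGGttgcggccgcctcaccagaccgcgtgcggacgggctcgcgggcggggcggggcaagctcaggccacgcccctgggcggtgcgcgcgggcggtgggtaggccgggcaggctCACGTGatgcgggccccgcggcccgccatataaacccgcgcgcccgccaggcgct

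Of the sterol enzymes in PC9, those at the end of the pathway included the largest ratios. TM7SF2, a reductase that acts just after lanosterol is demethylated, stood at 6.25 CPM untreated, 16.9, 24.8 and 30.9 CPM as the lowest, median and highest value over the doses, and at 29.3 CPM in persisters. It was 2.97-fold higher (2.18 to 4.08) at 8 nM and 4.37-fold higher (3.29 to 5.86) at 1.2 µM. LBR, the lamin B receptor, carries the same reductase activity and ran opposite: 142 CPM untreated, 82.5 to 105 CPM over the doses and 41.4 CPM in persisters. DHCR7, which makes cholesterol in the last step, stood at 21.4 CPM untreated, 39.1, 54.3 and 61.1 CPM as the lowest, median and highest value over the doses, and 19.8 CPM in persisters. Every dose of DHCR7 was above untreated, with 2.85-fold (2.43 to 3.36) at 1.2 µM. SC5D, a desaturase near the end, was low throughout, at 4.07 CPM untreated, 4.83 CPM at 16 nM, its lowest dose value, and 11.8 CPM at 1.2 µM. The windows of TM7SF2 (chr11:65111622-65111871, plus strand) and DHCR7 (chr11:71448394-71448643, minus strand, 1 of 2 windows listed) in GRCh38.p14 are set side by side because both genes separated the doses from untreated cells. The DHCR7 window shown was picked as the one with the most NF-Y boxes, and the other held none. Capitals mark NF-Y boxes, 1 inverted box 74 bases before the TM7SF2 start and a pair at 94 and 48 bases before the DHCR7 start.

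TM7SF2: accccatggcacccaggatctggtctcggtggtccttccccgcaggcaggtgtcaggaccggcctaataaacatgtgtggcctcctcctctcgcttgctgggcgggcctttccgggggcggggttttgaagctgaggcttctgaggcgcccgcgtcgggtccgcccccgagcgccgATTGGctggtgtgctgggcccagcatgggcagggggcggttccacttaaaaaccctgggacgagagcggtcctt
DHCR7: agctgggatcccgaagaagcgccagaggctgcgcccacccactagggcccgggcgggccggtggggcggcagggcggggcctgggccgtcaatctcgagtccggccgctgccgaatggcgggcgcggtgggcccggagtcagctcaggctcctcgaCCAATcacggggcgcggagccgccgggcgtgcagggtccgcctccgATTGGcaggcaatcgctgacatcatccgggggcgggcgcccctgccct

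Several other enzymes of the pathway were also above untreated at every PC9 dose, with smaller ratios, but not all of them. FDFT1, squalene synthase, which commits the pathway to sterols, stood at 49.0 CPM untreated and 85.2 to 99.6 CPM over the doses. HMGCS1, which condenses the carbon units early in the pathway, was 31.4 CPM untreated and 50.7 to 62.5 CPM. IDI1, the isopentenyl diphosphate isomerase, was 24.2 CPM untreated and 34.2 to 50.3 CPM. None of these 3 ranges reached the untreated level. PMVK, a kinase of the mevalonate steps, was lower at every dose, with 27.6 CPM untreated and 21.8 to 26.5 CPM. No dose of PMVK had a counting interval apart from untreated. GGPS1, NSDHL and LSS had dose values on both sides of untreated. ACAT2, the thiolase of the first step, was 27.6 CPM untreated and 39.8 to 59.9 CPM. MSMO1, a demethylating oxidase, was 13.6 CPM untreated and 21.2 to 31.2 CPM.

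Fatty acid genes went different ways in adapted PC9 cells, with the desaturases above untreated and the palmitate synthase not above it. SCD, the desaturase that makes oleate, stood at 10.1 CPM untreated, 19.1, 26.5 and 36.2 CPM as the lowest, median and highest value over the doses, and at 4.28 CPM in persisters. It was 2.40-fold higher (1.86 to 3.1) at 8 nM and 3.57-fold higher (2.85 to 4.51) at 1.2 µM. FADS2, the first desaturase of polyunsaturated fatty acids, stood at 11.8 CPM untreated, 22.8 to 35.8 CPM over the doses and 9.98 CPM in persisters. The other desaturase of that route, FADS1, was 87.1 CPM untreated and 115 to 130 CPM. ME1, malic enzyme, which supplies NADPH, was 132 CPM untreated, 192 to 261 CPM over the doses and 189 CPM in persisters. FASN, the synthase that builds palmitate, was not higher at any dose: 40.7 CPM untreated and 29.1 to 37.5 CPM. ELOVL6, which lengthens palmitate, was likewise lower at each dose, with 31.0 CPM untreated and 20.7 to 26.8 CPM. ACACA, which makes malonyl-CoA, was higher at each dose, at 104 CPM untreated and 113 to 143 CPM. ACLY, which makes cytosolic acetyl-CoA, was 57.0 CPM untreated and 53.1 to 64.1 CPM, on both sides of untreated. So the 3 desaturases, ME1 and ACACA were above untreated at all 8 doses, while FASN and ELOVL6 were below it. Counting intervals were apart from untreated at all 8 doses for the desaturases and ME1. They were apart at 6 doses for ACACA and ELOVL6, and at only 2 for FASN. In cells of the authors' table ELOVL6 was still below untreated at each dose, but FASN (40.7 CPM untreated, 24.2 to 43.3 CPM over the doses) and ACACA (117 CPM, and 115 to 170 CPM) lay on both sides of it. The SCD window (GRCh38.p14, chr10:100346983-100347232, plus strand) is shown with NF-Y boxes 229 and 186 bases before the start in capitals.

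SCD: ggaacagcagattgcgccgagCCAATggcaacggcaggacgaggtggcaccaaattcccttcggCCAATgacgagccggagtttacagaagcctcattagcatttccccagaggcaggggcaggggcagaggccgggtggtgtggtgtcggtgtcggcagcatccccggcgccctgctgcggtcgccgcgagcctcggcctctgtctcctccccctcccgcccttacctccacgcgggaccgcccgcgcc

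**Figure D2:**
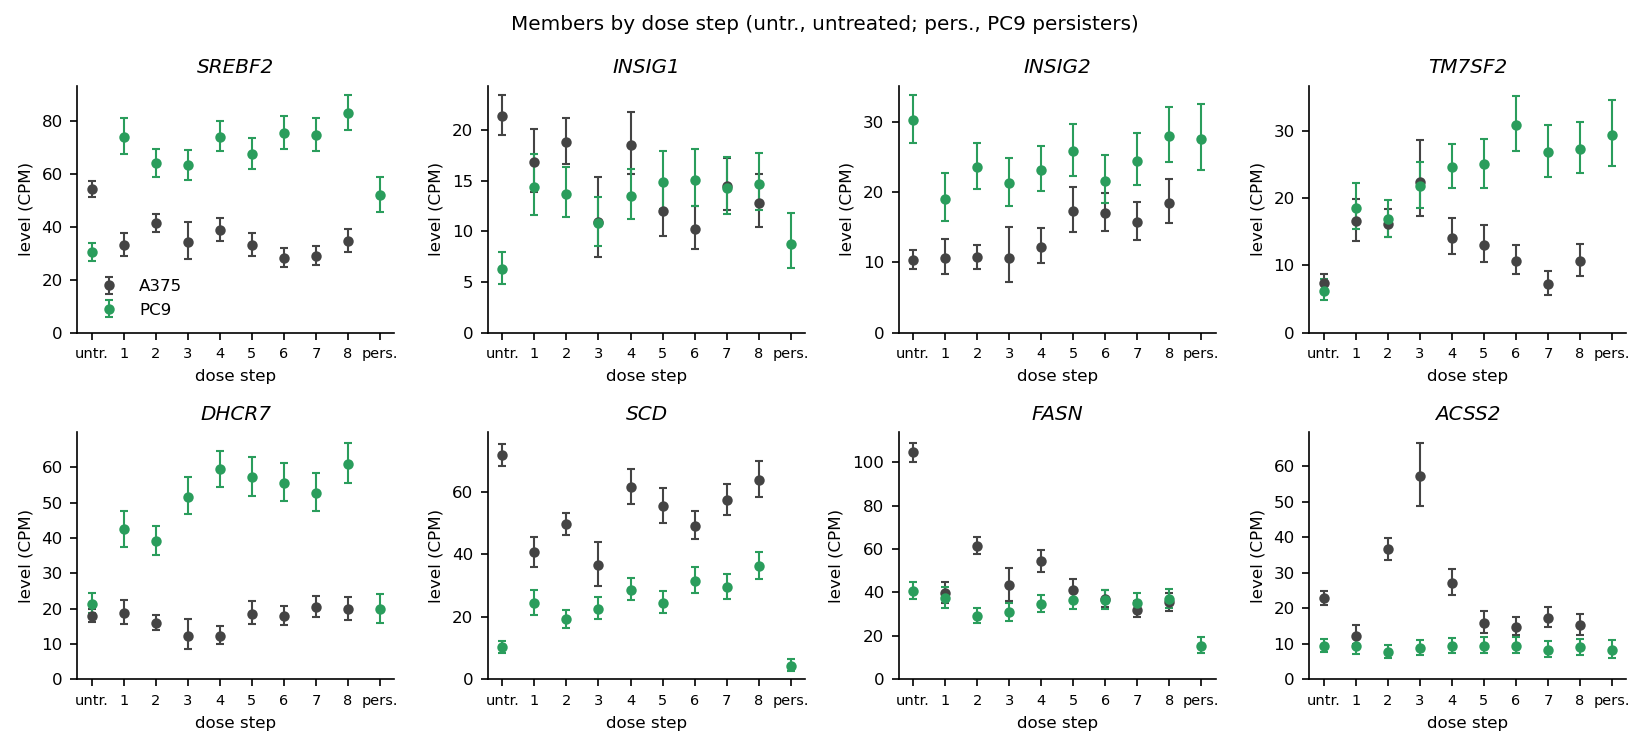
CPM of SREBF2, INSIG1, INSIG2, TM7SF2, DHCR7, SCD, FASN and ACSS2 by step of escalation, with untreated cells at the left, PC9 persisters at the right and exact 95% counting intervals (A375 grey, PC9 green). SREBF2, INSIG1 and SCD run above the untreated level in PC9 and below it in A375, INSIG2 does the reverse, and FASN is below untreated in both lines.

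Counting members at a 2-fold difference in CPM (after adding 1 CPM, and with at least 10 CPM and 20 molecules in the higher population), 4 of 30 measured members were higher and 0 lower in PC9 at 8 nM, where 3.15% of all measured genes were higher and 1.77% lower. The 4 were TM7SF2, SREBF2, SCD and INSIG1. Among cells of the authors' table the count was also 4, but with IDI1 and MVD in place of SREBF2 and INSIG1. From 16 to 600 nM the count was 3, 5, 7, 7, 8 and 8 in order of dose, where 4.14%, 4.77%, 5.42%, 5.13%, 5.83% and 6.17% of all measured genes were higher. TM7SF2 and SREBF2 were in every one of these counts. At 1.2 µM 10 of 31 members were higher and 0 lower, against 6.0% and 3.86% of all measured genes. The 10 were the 6 sterol genes TM7SF2, SC5D, DHCR7, MSMO1, ACAT2 and FDFT1, the control genes SREBF2 and INSIG1, and SCD and FADS2. The median log2 ratio of the 31 members was 0.44 and that of all measured genes was 0.02. The authors' cell table lists 4208 of the PC9 cells (37.4%). These held fewer cycling transcripts than all cells, but not equally few in each population. In those cells, 8 members were higher at 1.2 µM and 6 of the 10 were among them. ACAT2, FDFT1, INSIG1 and MSMO1 dropped out there, and FADS1 and IDI1 came in.

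Past the first step, neighbouring PC9 populations differed little. Between neighbouring PC9 doses, no member differed by 1.5-fold in any of the 7 steps. In order of dose, 0.486%, 0.973%, 0.289%, 0.0649%, 0.195%, 0.161% and 0.323% of all measured genes were higher by that much, and 0.140%, 0.919%, 0.396%, 0.130%, 0.130%, 0.118% and 0.290% lower. Between 8 nM and 1.2 µM, SC5D alone was 1.5-fold higher (5.34% of all measured genes) and TMEM97 alone 1.5-fold lower (5.41%). The 1.5-fold threshold was chosen after the values were seen. Ranking each gene over populations, 20 of 32 members were lower in untreated PC9 than at every dose, against 34.9% of all genes at 10 CPM. These were 12 of 18 sterol genes, 3 of 5 control genes and 5 of 8 fatty acid genes. Another 7 were higher in untreated cells than at every dose, against 28.7%: PMVK, EBP, LBR, INSIG2, SCAP, FASN and ELOVL6. These ranks ignore counting error. Counting intervals were apart from untreated at 0 doses for PMVK and EBP, 1 for SCAP, 2 for FASN, 5 for INSIG2, 6 for ELOVL6 and 8 for LBR. Of the 20 lower ones it was 1 dose for HSD17B7, 4 for SC5D and SREBF1, and 5 for SQLE. It was 6 for FDPS and ACACA, and 8 for the rest. Counted over cells of the authors' table, 18 members were lower and 6 higher, against 29.3% and 27.8% of all genes.

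**Figure D3:**
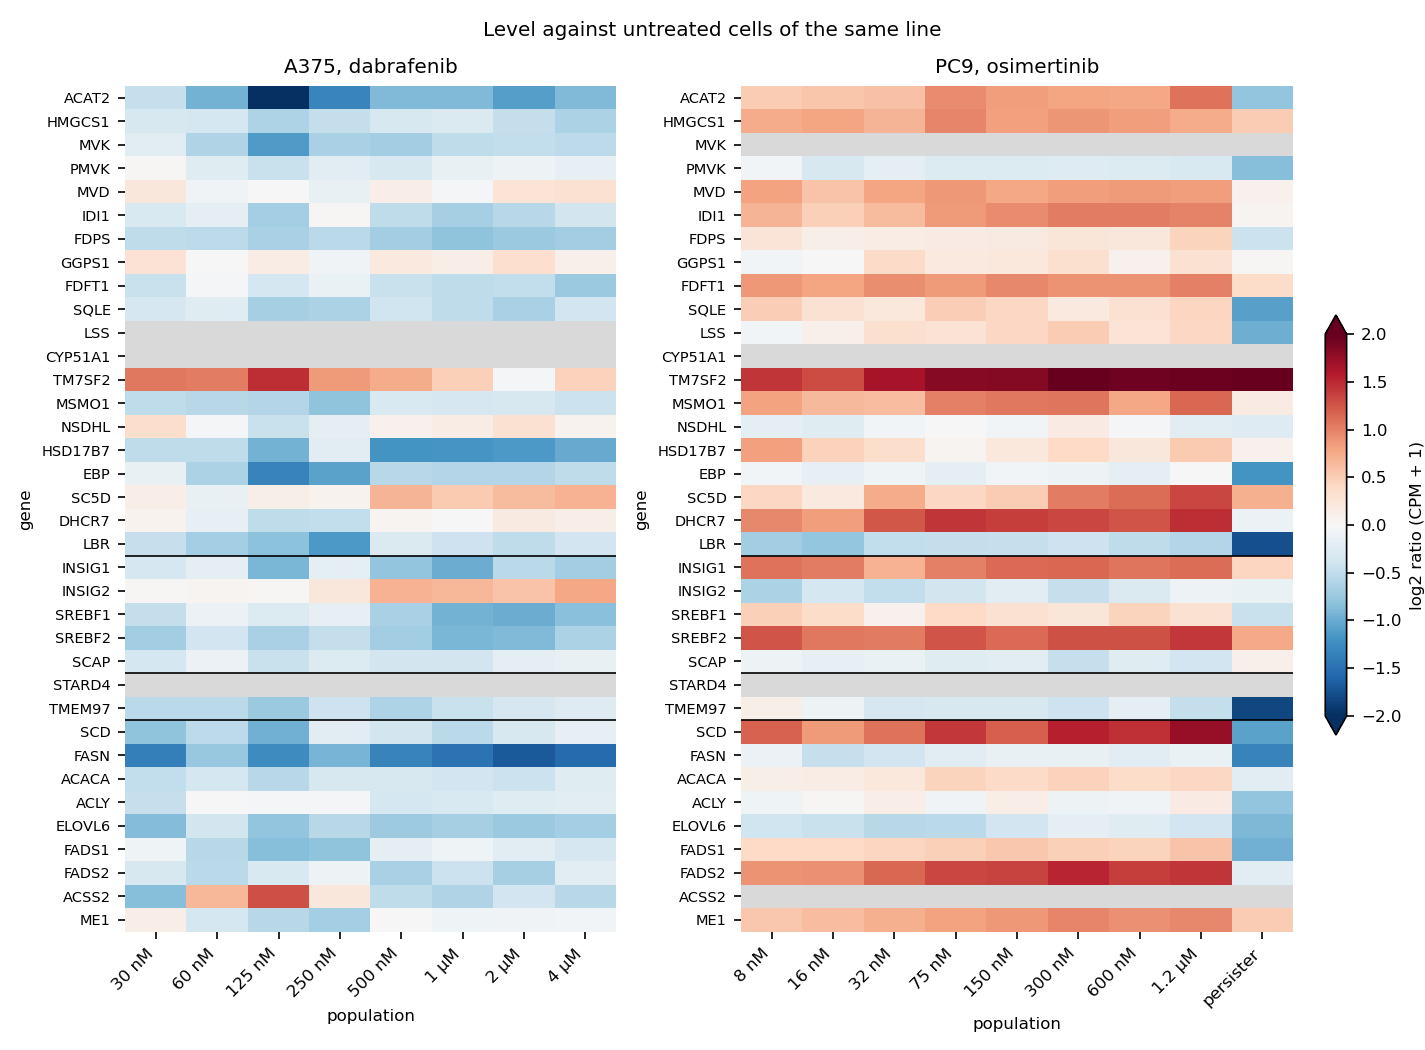
Log2 ratio of each member (CPM plus 1) against untreated cells of its line, by population, grouped by role. PC9 doses are mostly above 0 and A375 doses mostly below, and the PC9 persister column differs from the column of 1.2 µM adapted cells.

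PC9 persisters met the same concentration as the 1.2 µM adapted cells but in a single 9-day exposure, and most members were lower in them than in the adapted cells. Their sterol sum was 522 CPM (502 to 542), against 946 CPM in the adapted cells and 691 CPM untreated. Their fatty acid sum was 409 CPM, against 728 and 483 CPM. Against untreated cells the persisters were 1.32-fold (1.27 to 1.39) and 1.18-fold (1.12 to 1.24) lower.

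Compared with 1.2 µM adapted cells, 11 of 31 members were at least 2-fold lower in persisters and 0 higher, against 4.26% and 4.03% of all measured genes. The median log2 ratio was -0.75 over the members and -0.06 over all measured genes. Of the members' ratios, 29 of 31 were below 0. The median of all measured genes, -0.06, lay only just below 0, so more of them were below 0 than above it. SCD differed most: 4.28 CPM in persisters and 36.2 CPM in adapted cells, 8.47-fold lower (5.43 to 13.9). FADS2 was 3.33-fold lower (2.44 to 4.62), FADS1 2.92-fold lower (2.52 to 3.40) and FASN 2.38-fold lower (1.84 to 3.12), which makes 4 of 8 fatty acid genes. In the sterol branch 6 of 17 genes were lower by that measure. ACAT2 was 3.87-fold lower (3.03 to 5.0), DHCR7 3.09-fold lower (2.48 to 3.89) and LSS, lanosterol synthase, 3.08-fold lower (1.81 to 5.56). SQLE, the squalene epoxidase, was 2.99-fold lower (2.31 to 3.94), EBP, a sterol isomerase, 2.32-fold lower (1.89 to 2.87) and LBR 2.27-fold lower (1.94 to 2.67). TMEM97, a sterol-binding transport protein, was 2.63-fold lower (2.01 to 3.50).

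TM7SF2 stood apart from the other sterol enzymes in persisters. It stood at 29.3 CPM there and 27.3 CPM in adapted cells, a ratio of 1.07 (0.862 to 1.34), and it was the only member at least 2-fold higher than in untreated cells, by 4.69-fold (3.48 to 6.38), where 10.6% of all measured genes were higher. Cells of the authors' table had 34.2 and 43.3 CPM of TM7SF2. SREBF2 also stayed above untreated, by 1.71-fold (1.44 to 2.02), while being 1.60-fold (1.38 to 1.86) below the adapted cells. SCAP, at 23.0 CPM, was the only member highest in persisters of all 10 populations, against 24.6% of all genes at 10 CPM. Within cells of the authors' table it was 23.1 CPM in persisters and 29.2 CPM untreated, so it was not highest there.

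Against untreated cells, 6 of 28 members were at least 2-fold lower in persisters, where 9.63% of all measured genes were lower. These were TMEM97 (50.6 to 13.7 CPM, 3.71-fold, 2.87 to 4.85), LBR (3.42-fold, 2.96 to 3.98), FASN (2.63-fold, 2.05 to 3.40), SCD (2.37-fold, 1.48 to 3.99), EBP (2.34-fold, 1.92 to 2.88) and SQLE (2.20-fold, 1.70 to 2.89). The count was 5 of 25 in cells of the authors' table, and only 3 of the 6 (TMEM97, LBR and FASN) were among them. EBP, SCD and SQLE dropped out there, and ACAT2 and PMVK came in. Over all cells, persisters were the lowest of all 10 populations for 18 of 32 members, against 33.3% of all genes. Among them were 7 of 8 fatty acid genes, all except ME1. The TMEM97 window (GRCh38.p14, chr17:28318950-28319199, plus strand) is shown for a gene that was low in persisters and not high in adapted cells (35.95 to 54.8 CPM over the doses). Capitals mark its NF-Y boxes 198, 146 and 85 bases before the start.

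TMEM97: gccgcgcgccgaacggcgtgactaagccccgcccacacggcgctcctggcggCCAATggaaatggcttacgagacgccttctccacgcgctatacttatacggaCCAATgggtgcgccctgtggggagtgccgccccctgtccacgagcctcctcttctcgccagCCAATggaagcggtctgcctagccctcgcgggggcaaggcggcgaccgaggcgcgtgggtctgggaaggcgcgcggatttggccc

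**Figure D4:**
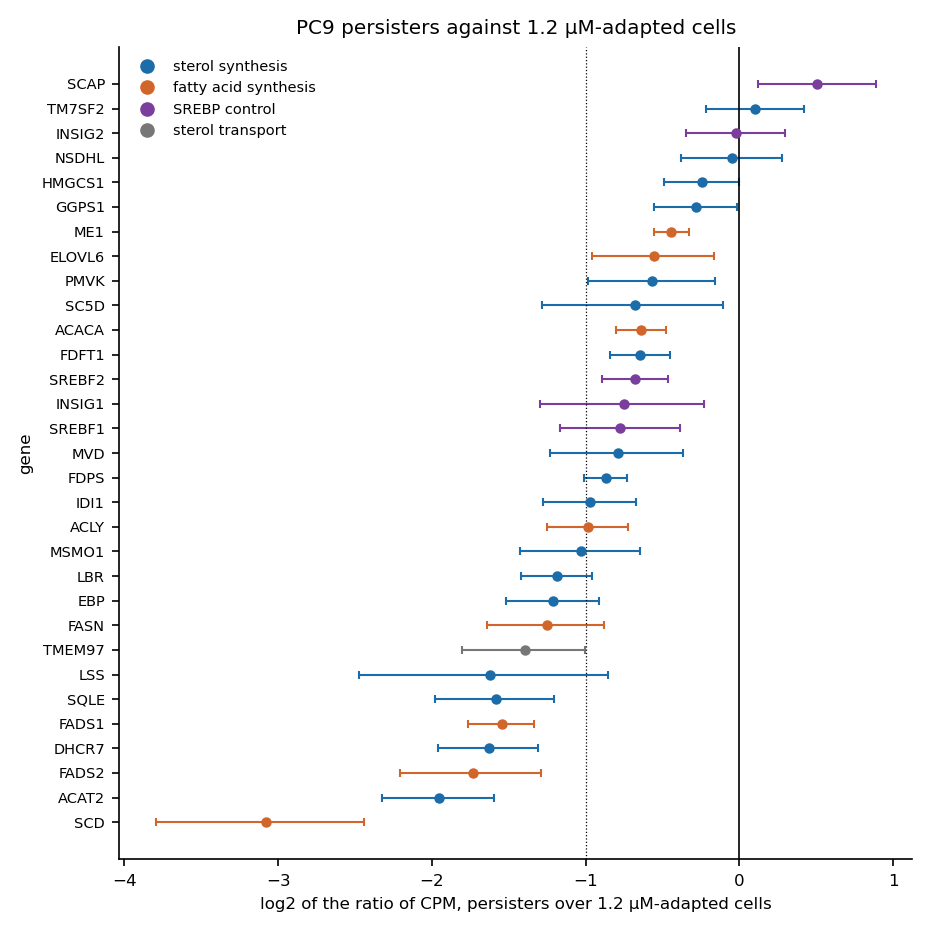
Log2 of the ratio of CPM, with nothing added, of persisters to 1.2 µM adapted PC9 cells for the 31 measured members. Members are shown by role, with exact 95% counting intervals. SCAP and TM7SF2 are above 0. The 11 members called 2-fold lower after adding 1 CPM lie beyond the dotted line, which marks a 2-fold lower level.

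Persisters also held fewer transcripts of cycling cells. The 18 S-phase genes summed to 445 CPM in persisters, 1162 CPM in 1.2 µM adapted cells and 1592 CPM in untreated cells. Cells of the authors' table held fewer in each of these populations, with 203, 353 and 724 CPM, and kept the same order. Among those cells 12 members were at least 2-fold lower in persisters than in adapted cells, and 9 of the 11 above were among them (not LSS and TMEM97). Their sterol sums were 477 CPM in persisters and 868 CPM at 1.2 µM. The control genes of persisters summed to 127 CPM against 110 CPM untreated over all cells, and to 126 against 138 CPM in cells of the table, so that direction depended on which cells were used. Persisters also had the lowest median molecules per cell in PC9 (5776, against 6116 to 7968 in the other populations). Whether this affected the ratios was not tested. In another recount, the summed molecules of each population were thinned to the smallest sum, the 4908228 of persisters. That did not equalise molecules per cell. It gave 12 members at least 2-fold lower in persisters than in adapted cells, 10 of the 11 among them (not LSS). The median log2 ratio was then -0.78.

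In A375, adaptation to dabrafenib went with lower levels of most of the same genes. SREBF2 stood at 54.1 CPM untreated and 28.2, 33.8 and 41.3 CPM as the lowest, median and highest value over the doses. SREBF1 stood at 56.5 CPM untreated and 27.8, 37.9 and 51.9 CPM, sorted the same way. INSIG1 stood at 21.4 CPM untreated and 10.2, 13.7 and 18.8 CPM, again sorted. All 8 doses lay below untreated for each of the 3. INSIG2 was the reverse, at 10.3 CPM untreated and 10.5 to 18.5 CPM over the doses. Its values up to 125 nM (10.5 to 10.7 CPM) were within counting error of untreated, and at 4 µM it was 1.79-fold higher (1.44 to 2.21). Within cells of the authors' table it was 10.9 CPM untreated and 9.78 to 21.6 CPM over the doses.

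FASN had the largest ratio to untreated cells of the measured A375 members at 4 µM. It stood at 105 CPM untreated and 32.1, 40.4 and 61.5 CPM as the lowest, median and highest value over the doses. It was 2.63-fold lower (2.32 to 2.99) at 30 nM and 2.96-fold lower (2.61 to 3.37) at 4 µM. SCD was 71.7 CPM untreated and 36.4 to 63.9 CPM, and ELOVL6 was 64.8 CPM untreated and 34.9 to 49.8 CPM. ACSS2, which makes acetyl-CoA from acetate, had its own course: 22.9 CPM untreated, then 12.3, 36.7, 57.2, 27.1, 15.8, 14.8, 17.2 and 15.2 CPM in order of dose. It peaked at 125 nM, 2.50-fold above untreated (2.08 to 2.98).

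Of the sterol genes, ACAT2 had the largest ratio of highest to lowest level over the A375 populations. It went from 80.1 CPM untreated to 18.4 CPM at 125 nM, with a median of 42.1 CPM over the doses. EBP was 69.2 CPM untreated and 26.9, 45.8 and 62.2 CPM as the lowest, median and highest value over the doses. FDPS, which makes farnesyl diphosphate, was 182 CPM untreated and 104 to 128 CPM. HSD17B7, a reductase of sterol demethylation, was 16.6 CPM untreated and 6.72 to 14.1 CPM. HSD17B7 and FDPS have close pseudogene copies, and how reads were shared with them is not given in the sources used here. TM7SF2 was higher than untreated at 7 of 8 doses, at 7.42 CPM untreated and 22.5 CPM at 125 nM, the latter 3.03-fold higher (2.24 to 4.05), and it was 7.19 CPM at 2 µM. SC5D was 12.4 CPM untreated and 20.7 CPM at 4 µM, 1.67-fold higher (1.36 to 2.03).

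Counted at 2-fold, 1 of 33 members was higher at 30 nM (TM7SF2, 2.23-fold, 1.74 to 2.85) and 1 lower (FASN), against 4.03% and 4.97% of all measured genes. At 4 µM 0 were higher and 2 lower (FASN, and HSD17B7 by 2.15-fold, 1.63 to 2.88), against 5.59% and 8.89%. Both shares are near those of all genes. HSD17B7 lost its call at 4 µM under several alternatives, and in cells of the authors' table ACSS2 was called in its place. The doses between gave 1 higher and 0 lower at 60 nM (1.64% and 1.07% of all measured genes), 2 and 4 at 125 nM (3.73% and 6.44%), 0 and 3 at 250 nM (3.91% and 5.45%), 0 and 2 at 500 nM (4.58% and 6.86%), 0 and 2 at 1 µM (4.82% and 8.74%) and 0 and 3 at 2 µM (5.10% and 9.63%). At 125 nM the higher ones were TM7SF2 and ACSS2 and the lower ones ACAT2, MVK, EBP and FASN. At 1.5-fold, 10 of 33 members were lower at 4 µM, against 21.0% of all measured genes, and 2 were higher, against 10.7%. The median log2 ratio at 4 µM was -0.36 over the members and -0.17 over all measured genes. By rank, 21 of 33 members were higher in untreated A375 than at every dose, against 29.1% of all genes at 10 CPM. These were 10 of 18 sterol genes, 4 of 5 control genes, 6 of 9 fatty acid genes and TMEM97. INSIG2 alone was lower in untreated cells than at every dose, against 13.3%.

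The untreated A375 cells were also the ones richest in transcripts of cycling cells, with S-phase genes at 1406 CPM, against 299 to 754 CPM over the doses. In the 5059 cells of the authors' table these sums were 345 CPM and 207 to 257 CPM. The sterol sum in those cells was 643 CPM untreated and 488 to 577 CPM over the doses, and the fatty acid sum was 686 CPM and 489 to 539 CPM. By rank, 17 of 33 members were higher in untreated cells of the table than at every dose, against 25.6% of all genes. LBR was not among them, with 25.2 CPM untreated and 20.7 to 36.9 CPM over the doses, and neither was TMEM97, with 16.0 CPM and 13.4 to 20.5 CPM. FASN in those cells was 96.7 CPM untreated and 29.6 to 54.1 CPM. The table held 22.0% of the untreated cells and 62.4% to 81.2% of the cells of each dose.

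Some members differed between cells inside and outside the authors' table in each population. In A375, 7 of 33 members were higher outside the table in all 9 populations (13.4% of all genes at 10 CPM), and in PC9 8 of 32 in all 10 (18.1%). ACAT2, FDPS, EBP, LBR, TMEM97 and FADS1 were in both sets. TMEM97 was higher outside by a median of 1.84-fold in A375 and 2.98-fold in PC9, LBR by 2.00-fold and 1.76-fold, and EBP by 1.64-fold and 1.91-fold. TM7SF2 was the only member lower outside in every population of both lines (6.98% and 15.6% of all genes), with median log2 ratios of -0.71 and -1.11. So the pair of sterol reductases TM7SF2 and LBR ran opposite here as well.

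Set side by side, the lines went opposite ways for many members. Of 31 members measured in both, 14 were lower than untreated at every A375 dose and higher than untreated at every PC9 dose, against 5.53% of 8859 genes. These were ACAT2, HMGCS1, FDPS, FDFT1, SQLE, MSMO1 and HSD17B7 of the sterol branch, SREBF1, SREBF2 and INSIG1, and SCD, ACACA, FADS1 and FADS2. INSIG2 alone showed the reverse, against 1.66%. EBP, LBR, SCAP, FASN and ELOVL6 were lower at every dose of both lines (14.0%), and 0 were higher at every dose of both (6.87%). These patterns count direction alone, and the PC9 counting limits given above for HSD17B7, EBP, SCAP and FASN apply here too. Among cells of the authors' table, the first pattern held for 9 members, against 4.65% of 8954 genes: ACAT2, HMGCS1, FDFT1, MSMO1, INSIG1, SREBF1, SREBF2, SCD and FADS2. Drug, line, medium and pool differ together between these sets and cannot be told apart.

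The untreated lines themselves started from different levels. SCD was 71.7 CPM in A375 and 10.1 CPM in PC9, 7.07-fold higher in A375 (5.81 to 8.68). Of 32 measured members 11 were at least 2-fold higher in A375 and 3 lower, against 20.4% and 13.6% of all measured genes. After escalation the SCD levels were 63.9 CPM at 4 µM in A375 and 36.2 CPM at 1.2 µM in PC9. SREBF2 went from 54.1 to 34.6 CPM in A375 and from 30.4 to 83.1 CPM in PC9, which reversed the order of the lines.

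The clusters of the authors' cell tables divided these levels further. In PC9, cluster 3 had the highest sterol sum, 855 CPM, and cluster 4 came next with 778 CPM, and their largest populations gave 18.5% and 22.5% of the cells. Clusters 3 and 4 differed in TM7SF2 (17.0 and 70.4 CPM) and SCD (27.7 and 47.0 CPM). Cluster 1, 83.4% persisters, had a sterol sum of 493 CPM and SCD at 6.51 CPM. In A375, cluster 0, 87.1% untreated, had the highest sums, at 656 CPM sterol and 692 CPM fatty acid. Cluster 7, with cells of 2 µM the largest share, had the lowest fatty acid sum, 428 CPM. ACSS2 stood at 58.7 CPM in cluster 1, of which 54.5% were 60 nM cells, and at 12.2 CPM in cluster 4, of which 44.1% were. These clusters were made from the same cells and genes, so the values are a description.

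**Figure D5:**
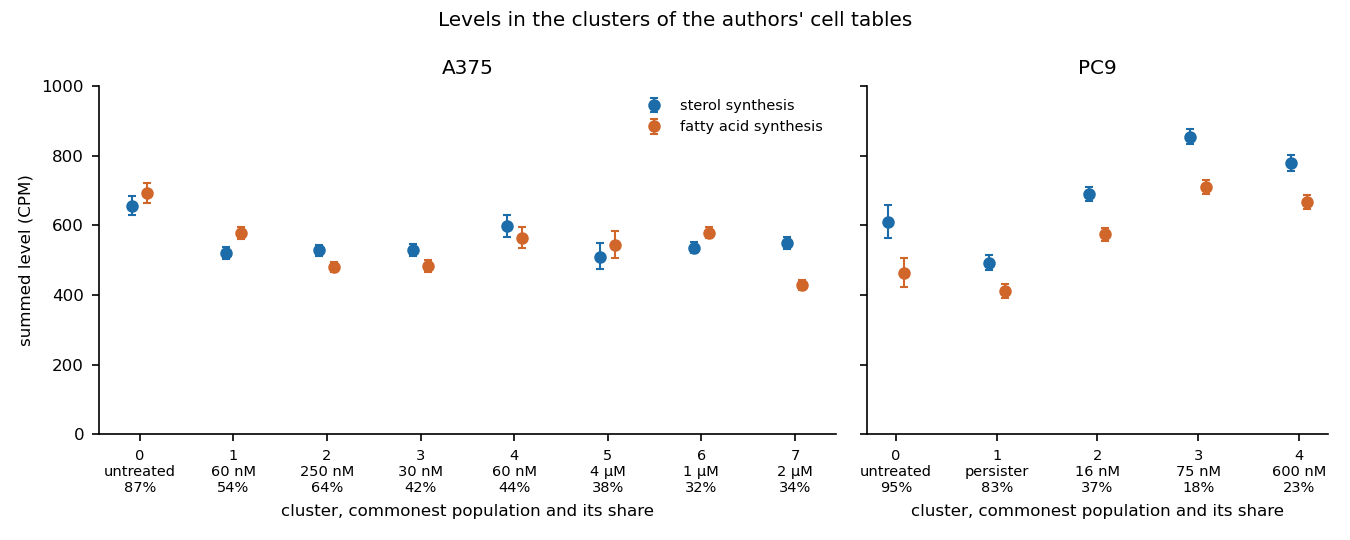
Summed CPM of sterol and fatty acid synthesis genes in each cluster of the authors' cell tables, with exact 95% counting intervals. Each cluster is labelled with its commonest population and that population's share of the cells, which can be a minority. PC9 clusters 3 and 4 are highest in that line, at 855 and 778 CPM sterol, and A375 cluster 0, mostly untreated cells, is highest in A375.

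Per cell, the counts behind these differences were low. With each cell thinned to 4000 molecules, sterol genes gave a mean of 2.77 molecules in 1235 untreated PC9 cells, 3.28 in 881 cells at 8 nM, 3.79 in 967 cells at 1.2 µM and 2.03 in 648 persisters. Before thinning the means were 5.54, 5.38, 6.53 and 3.11, so untreated cells held more sterol molecules per cell than 8 nM cells. The median of all molecules per cell was 7968, 6277, 6738.5 and 5776 in these populations. What made the totals per cell differ was not tested. Cells under 4000 molecules were left out: 80, 108, 105 and 175. In A375 the thinned mean was 3.15 in 1951 untreated cells and 1.97 to 2.52 over the doses. The variance divided by the mean of the sterol sum was 0.984 to 1.23 over the A375 populations, where counting alone gives a value of 1. In PC9 it was 1.05 untreated, 1.07 in persisters and 1.24 to 1.42 over the doses. Free RNA in the droplets was not estimated.

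In the promoter windows as a whole, 22 of 32 members (68.8%) held CCAAT on either strand, against 37.0% of 27305 genes with a RefSeq window. Of the sterol genes 14 of 17 held it, of the fatty acid genes 4 of 8 and of the control genes 2 of 5. GGGCGG, the Sp1 box, was in 30 of 32 members (93.8%) and 46.2% of all genes. TCACNCCAC was in 1.09% of all genes. CACGTG was in SC5D, INSIG1 and SCAP (9.38%) and 7.73% of all genes. The RefSeq windows run from 250 bases before to 50 after the start, and only the 250 bases before it were searched. A stretch could count for more than 1 motif. A match describes the letters only.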

How the data were processed

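Single-cell RNA-seq of 2 pools (6 GEO samples, of which the tag libraries were not used here) gave 1 table per line. The deposited tables hold raw counts of unique molecules per gene and cell, per the labels, and cells were assigned to populations by the suffix of their names. Cell Ranger 7.0.0 and GRCh38 are named in the submitters' processing notes, and further steps are not given in the sources used here. The authors' cell tables give total counts, the percent of mitochondrial counts and clusters for 5059 A375 cells (59.5%) and 4208 PC9 cells (37.4%), per the file headers. The deposited names of these tables include g1, which may refer to the G1 phase, but how the cells were chosen is not given in the sources used here. These cells had fewer cycling transcripts than all cells, though not equally few in each population, and served as an alternative.

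Molecules were summed over all cells of a population and scaled to CPM. Folds are ratios of CPM with 95% exact binomial intervals, and single levels have exact Poisson intervals. A gene was measured with 10 CPM and 20 molecules in the higher population, and called at 2-fold on log2(CPM + 1). No test was run, because each population is 1 culture and the labels name no replicates. No doublet caller was run. 27 cell barcodes occurred in both lines' tables, and 0 in more than 1 population of a line. Columns of samples outside this study numbered 0.

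The members and lists were chosen with earlier results of these data known. Values by population are given for members called in a main comparison or among the 3 with the widest range in their list, and of the related lists up to 4 called genes per list and line are named. Alternatives were cells of the authors' table, cells without high totals or high mitochondrial shares, TMM factors (edgeR 4.0.16, R 4.3.3), totals without mitochondrial and ribosomal protein genes, means of the cells' CPM, thinned counts, a pseudocount of 5 CPM, no filter and a 50 CPM filter. The mitochondrial filter, the 1.5-fold threshold and the recount of ranks and sums under other cells and totals were added after seeing the data. On simulated counts for the 6 main comparisons, 99 to 100 of 100 genes set 3-fold apart were called, and 0 of 100 set 1.3-fold apart. The genes set apart were drawn from mean levels above the 10 CPM limit, and only counting error was simulated. Members near or below that limit and differences between cultures are therefore not covered. Promoter windows are RefSeq's (GRCh38.p14), and 32 of 36 members had one. Python 3.11.15, numpy 2.4.6, scipy 1.17.1, pandas 2.3.3 and matplotlib 3.10.9 were used.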

Additional observations from a re-analysis of the deposited data

Results flagged for a closer look

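In 15 members and 3 sums every adapted A375 population lay on one side of untreated cells and every adapted PC9 population on the other. Whether the lines differ was not tested, since each population is 1 culture. The values below are the median log2 ratio over the 8 PC9 doses minus that over the 8 A375 doses.

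Among the control genes the difference was 1.92 for SREBF2 (median -0.67 in A375 and 1.26 in PC9), 1.70 for INSIG1 (-0.62 and 1.08) and 0.90 for SREBF1 (-0.56 and 0.33). INSIG2 ran the other way, at -0.75 (0.39 and -0.36). Among the sterol enzymes it was 1.69 for ACAT2 (-0.91 and 0.78), 1.38 for MSMO1, 1.35 for FDFT1, 1.36 for HSD17B7, 1.22 for HMGCS1, 0.88 for FDPS and 0.81 for SQLE. Among the fatty acid genes it was 1.75 for SCD (-0.44 and 1.301), 1.71 for FADS2, 0.75 for ACACA and 0.74 for FADS1.

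The summed levels showed the same opposition, with 0.80 for sterol synthesis (-0.45 and 0.35), 0.94 for fatty acid synthesis and 0.97 for the control genes. Among cells of the authors' table, 9 of the 14 members lower in A375 and higher in PC9 kept that order, and FDPS, SQLE, HSD17B7, ACACA, FADS1 and INSIG2 did not.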

How the results depend on the processing

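With 1 culture per population, no replicate could be left out. No paired analysis was possible because each population is 1 culture and no test was run. Over the per-member ratios of the 6 main comparisons, no called value changed sign under any alternative. With cells of the authors' table, 54 of 180 ratios moved beyond their counting interval and 14 changed sign, and with TMM factors 0 of 186 moved. TMM shifted the median of all genes at 4 µM in A375 from -0.17 to -0.07 and that of the members from -0.36 to -0.27.

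Counts at 2-fold moved as follows, and the cause was not tested except where fewer genes could enter. In A375 at 30 nM, 0 instead of 1 were higher in cells of the table, with a pseudocount of 5 and at 50 CPM. There, 3 were lower in cells of the table, 2 without high-total cells and 4 by the mean of the cells' CPM. At 4 µM in A375, 1 instead of 2 was lower without high-total cells, without high mitochondrial cells, with TMM factors, with totals lacking mitochondrial and ribosomal genes, with a pseudocount of 5 and at 50 CPM (FASN alone), and 1 instead of 0 was higher after thinning (INSIG2). In PC9 at 8 nM, 1 was lower in cells of the table (LBR), where SREBF2 and INSIG1 lost their calls, and 2 instead of 4 were higher with a pseudocount of 5 and 1 at 50 CPM. At 1.2 µM, 5 instead of 10 were higher with a pseudocount of 5 and 4 at 50 CPM. At 50 CPM, which fewer members reach, persisters had 0 higher and 3 lower against untreated cells, and 5 lower against adapted cells.

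By rank with TMM factors, 20 of 33 A375 members were higher untreated than at every dose, 18 of 32 PC9 members lower and 11 of 31 members opposite between the lines, against 25.6%, 28.2% and 3.28% of all genes. Thinned to the shallowest population, counts differed by at most 1 in the 6 comparisons, with INSIG1 not called at 8 nM or 1.2 µM in PC9.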

Other observations

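Of 8 genes of SREBP processing and sterol-regulated degradation next to these pathways, 0 were 2-fold apart in any of the 6 main comparisons. In each comparison and direction 1.77% to 10.6% of all measured genes were called, so 0 of 8 genes says little. Among genes of sterol efflux and trafficking, the cholesterol exporter ABCA1 stood at 29.4 CPM in untreated PC9, 18.0 CPM at 1.2 µM and 70.3 CPM in persisters, 3.91-fold above the adapted cells. NPC2, which hands cholesterol out of lysosomes, was 218 CPM at 1.2 µM and 617 CPM in persisters. LIPA, the lysosomal esterase that frees cholesterol, was 12.4 CPM untreated and 44.2 CPM at 1.2 µM. In A375 the lipoprotein receptor SCARB1 was 59.4 CPM untreated and 28.0 CPM at 4 µM.

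Of the genes that use isoprenoids, PDSS1 and COQ2, both of ubiquinone synthesis, were lower in persisters than untreated, at 4.48 against 26.8 CPM and 9.37 against 20.2 CPM. They were 2 of 11 measured, where 9.63% of all measured genes were lower. Among other fatty acid genes, the desaturase SCD5 was 59.7 CPM untreated and 159 CPM at 1.2 µM in PC9, and FADS3 was 13.6 and 41.0 CPM. ELOVL1, an elongase, was 103 CPM untreated and 47.7 CPM in persisters. ACSL3, which activates fatty acids, was 422 CPM in untreated A375 and 156 CPM at 4 µM, and in PC9 217 CPM untreated and 321 to 418 CPM over the doses. Of the glycerolipid genes DGAT2, which makes triglyceride, was the only one called in any of these comparisons, with 8.62 CPM untreated and 22.4 CPM at 1.2 µM in PC9.

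Summed over markers, immune genes gave 8.19 to 32.5 CPM, and fibroblast and endothelial genes 13.9 to 98.8 CPM in A375 and 9.67 to 16.7 CPM in PC9. The 18 G2 and M phase genes summed to 2624 CPM in untreated A375 and 455 to 1386 CPM over the doses, and to 2265 CPM in untreated PC9 and 987 CPM in persisters.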
